A study of Mus musculus with 6 samples.

Results

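The 9 genes studied act on Notch receptors at the membrane and were measured in sorted quiescent muscle stem cells (qMuSCs) of mice with and without a Cre driver against Dio2, the gene for type 2 deiodinase (D2), which activates thyroid hormone inside the cell. They were taken by name: the sheddases Adam10 and Adam17, the γ-secretase subunit genes Psen2, Ncstn, Aph1a, Aph1b and Psenen, and the adaptor genes Numb and Numbl. All 9 were among the 31053 genes of the count table and among the 11633 that reached a mean of 10 normalized counts and were tested. The 3 control mice (WT; c124, c129 and c130) carried Pax7nGFP/+, Pax7+/+ and Dio2Fl/Fl. The 3 cD2KO mice (fl125, fl126 and fl128) carried Pax7nGFP/+, Pax7-CreERT2/+ and Dio2Fl/Fl. Both groups were therefore floxed at Dio2 and expressed the Pax7 GFP reporter. Both received tamoxifen. They differed in the Pax7-CreERT2 allele, so that a direct effect of this allele and the loss of Dio2 cannot be told apart. Cells came from resting hindlimb muscle of mice aged 3 to 4 months, were sorted on GFP, and gave 1 library for each mouse.

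Notch receptors are cut in sequence after a ligand on a neighboring cell pulls on them. ADAM10 and, in some settings, ADAM17 remove the ectodomain, a step named shedding, and γ-secretase then cuts the remaining stub within the membrane and frees the intracellular domain, which enters the nucleus and joins RBPJ. γ-Secretase is a complex of a presenilin as catalytic subunit, nicastrin, an APH-1 protein and PEN-2. Numb and Numb-like are endocytic adaptors that restrain Notch, and Numb is inherited unequally in some divisions of muscle progenitors. Notch activity is known to be needed for muscle stem cells to remain quiescent. The comparison asked whether the transcripts of this cleavage step differed between WT and cD2KO qMuSCs.

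Library totals ran from 2184073 to 3897787 counts. In the shallowest library 3 counts corresponded to 1.36 CPM, a count scaled to the size of its library after edgeR's trimmed mean of M values (TMM), and in the deepest to 0.768. Dio2 itself had 21, 5 and 10 counts in WT and 15, 5 and 1 in cD2KO, too few for the test. As CPM, Dio2 was highest in the library labelled fl125 (6.80), so these counts did not separate the groups. The defining MuSC marker Pax7 was present in every library at 211 to 688 CPM. Markers of other cells were present as well, and some moved with the groups. Summed over 22 immune markers, the level was 4224 to 7889 CPM in WT and 233 to 2515 in cD2KO, with the lowest value in fl125. Summed over 18 endothelial markers it was 315 to 499 in WT and 271 to 335 in cD2KO, with overlapping ranges. Over 13 mural markers it was higher in cD2KO (15181 to 21809 against 7333 to 11844), as it was over the 12 MuSC markers (1472 to 1922 against 1098 to 1439). Fibroadipogenic (2320 to 5189 in cD2KO against 3743 to 6268 in WT), Schwann (5948 to 6720 against 4304 to 6603) and myofiber sums (4110 to 7670 against 2365 to 4807) overlapped between the groups. Their part in the results was not tested. In RNA of a whole sorted population, fewer cells of a type and less RNA for each cell cannot be told apart.

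None of the 9 genes passed an unadjusted p of 0.05 in edgeR's quasi-likelihood test, in either direction. DESeq2 and limma voom likewise called 0 of 9. Among all genes tested, 770 were called lower in cD2KO (6.62%) and 621 higher (5.34%) at the same threshold. After Benjamini-Hochberg adjustment only 1 of the 11633 genes passed 0.05 by edgeR, and it was not a member. The fitted difference was below 0 for 6 members and above 0 for 3, with a median log2 fold change of -0.07 beside -0.02 for all genes. Their median absolute log2 fold change was 0.11, against 0.28 for all genes, at a median standard error of 0.28 against 0.32. For 7 members the 95% interval lay within a 2-fold difference either way, and the exceptions were Ncstn and Numb. Single libraries held 13 to 206 counts of a member, and the intervals include both this counting error and the spread among 3 mice for each group.

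**Figure D1:**
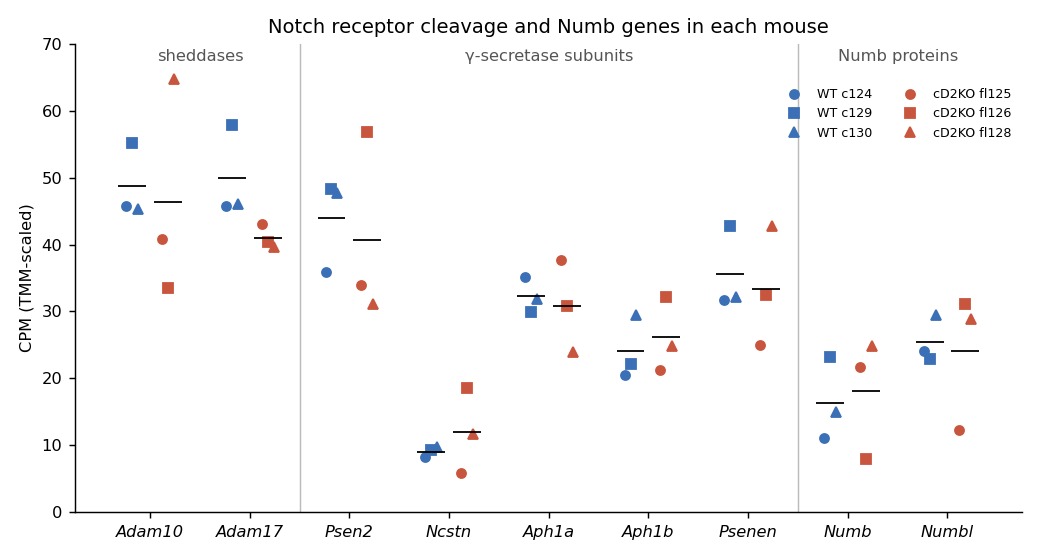
TMM-scaled CPM (vertical axis) of the 9 genes in each mouse, WT in blue and cD2KO in red, with the horizontal bars at the group means (3 mice each). For Adam17 all 3 cD2KO points lay below the WT points, whereas for the other 8 genes the groups overlapped.

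The sheddases were both well counted. Adam10 (ENSMUSG00000054693, chromosome 9, 70678997 to 70780229, plus strand, mm10) encodes the main protease of ligand-driven Notch shedding. It had 179, 150 and 131 counts in c124, c129 and c130, equal to 45.8, 55.2 and 45.3 CPM. In fl125, fl126 and fl128 it had 90, 98 and 206 counts, equal to 40.8, 33.5 and 64.8 CPM. Thus fl128 was the highest of the 6 mice and the other cD2KO mice were the lowest. The group means were 48.8 ± 5.58 in WT and 46.4 ± 16.3 in cD2KO (SD, n = 3 each). The log2 fold change was -0.07 (SE 0.27, 95% interval -0.64 to 0.50, edgeR adjusted p = 0.954).

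Adam17 (ENSMUSG00000052593, chromosome 12, 21323509 to 21373632, minus strand) encodes the protease that sheds TNF and EGF receptor ligands and can also cut Notch. Its level was 45.8, 57.8 and 46.0 CPM in c124, c129 and c130. In fl125, fl126 and fl128 it was 43.1, 40.4 and 39.6 CPM. All cD2KO mice were below all WT mice, which was so for no other member and held under 3 other library scalings. Over all tested genes the groups did not overlap, in one direction or the other, for 18.1%. The means were 49.9 ± 6.87 and 41.0 ± 1.81 CPM (SD, n = 3 each). The log2 fold change of -0.28 (SE 0.23, 95% interval -0.77 to 0.20) did not pass the test (edgeR adjusted p = 0.682), although it had the smallest p of the 9. Exons of Adam17 and of Iah1, on the opposite strand, share 311 bases, and the sources do not state whether counting used strand.

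The catalytic subunit measured here, Psen2 (ENSMUSG00000010609, chromosome 1, 180227004 to 180263438, minus strand), encodes presenilin 2. It had 35.8, 48.2 and 47.8 CPM in WT and 34.0, 56.8 and 31.1 CPM in cD2KO. The cD2KO mice fell on both sides of the WT range, with fl126 the highest of all. The difference was -0.11 on the log2 scale (SE 0.28, 95% interval -0.70 to 0.48, edgeR adjusted p = 0.925).

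Ncstn (ENSMUSG00000003458, chromosome 1, 172066013 to 172082795, minus strand) encodes nicastrin, the large glycoprotein of the complex. It was the member with the fewest counts, 32, 25 and 28 in WT and 13, 54 and 37 in cD2KO. As CPM these were 8.19, 9.21 and 9.69 in WT, and 5.89, 18.5 and 11.6 in cD2KO. The WT mice lay close together (9.03 ± 0.766 CPM), whereas the cD2KO mice spread on both sides of them (12 ± 6.30 CPM; SD, n = 3 each). Its fitted difference was the largest of the 9, a log2 fold change of 0.42, but the interval ran from -0.55 to 1.39 (SE 0.45, edgeR adjusted p = 0.778). Without fl126 it was -0.026. Exons of Ncstn and Copa, on opposite strands, overlap by 195 bases.

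The APH-1 scaffold is encoded by 3 genes in the mouse, of which Aph1a and Aph1b are members. Aph1a (ENSMUSG00000015750, chromosome 3, 95893969 to 95898288, plus strand) had 35.1, 29.8 and 31.8 CPM in WT and 37.6, 30.8 and 23.9 CPM in cD2KO. The highest and the lowest value both came from cD2KO mice. The log2 fold change was -0.08 (SE 0.27, 95% interval -0.65 to 0.50, edgeR adjusted p = 0.949). Aph1a and Car14, on the opposite strand, share 445 exonic bases.

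Aph1b (ENSMUSG00000032375, chromosome 9, 66775202 to 66795490, minus strand) had 20.5, 22.1 and 29.4 CPM in WT and 21.3, 32.2 and 24.8 CPM in cD2KO. The groups overlapped, with a log2 fold change of 0.13 (SE 0.29, 95% interval -0.50 to 0.76, edgeR adjusted p = 0.920). Its neighbor Aph1c (ENSMUSG00000053040, chromosome 9, 66814994 to 66834726, same strand) is a close copy. Their coding sequences, 774 and 777 bases long, aligned over 773 bases with 748 identical (96.8%) and 25 mismatches. The first 150 coding bases are printed here. Compared position by position without gaps, they differ at 16 bases, a larger share than the mismatches of the whole alignment. They read 5′ to 3′ on the minus strand of mm10, at chr9:66794204-66795365 for Aph1b and chr9:66833293-66834598 for Aph1c, with the 1 intron in between removed, and capitals mark the bases that differ.
Aph1b: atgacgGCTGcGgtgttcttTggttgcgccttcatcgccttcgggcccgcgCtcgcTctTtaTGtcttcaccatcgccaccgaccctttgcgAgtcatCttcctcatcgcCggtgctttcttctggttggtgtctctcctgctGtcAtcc
Aph1c: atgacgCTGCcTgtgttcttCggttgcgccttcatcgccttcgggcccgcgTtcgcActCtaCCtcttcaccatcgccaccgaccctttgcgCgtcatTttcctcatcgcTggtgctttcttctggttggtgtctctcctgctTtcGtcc
Of the 4909 distinct 50-base words in annotated Aph1b transcripts, 956 (19.5%) also occur in Aph1c. The counts of this pair are therefore uncertain, by an amount that was not measured, since how reads matching both genes were counted is not stated. No such word was shared between Aph1a and Aph1b, Numb and Numbl, or Adam10 and Adam17. Aph1c had only 2 to 30 counts in a library. Its level was 7.68, 9.21 and 3.81 CPM in WT and 0.906, 4.11 and 4.72 CPM in cD2KO, with overlapping groups and a log2 fold change of -1.04 (SE 0.66, edgeR adjusted p = 0.579).

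Psenen (ENSMUSG00000036835, chromosome 7, 30561863 to 30563627, minus strand) encodes PEN-2, the small subunit that completes the complex. It had 31.7, 42.7 and 32.2 CPM in WT and 24.9, 32.5 and 42.8 CPM in cD2KO. The ranges almost coincided apart from fl125, which was lowest. The log2 fold change was -0.08 (SE 0.28, 95% interval -0.67 to 0.51, edgeR adjusted p = 0.947). Psenen shares 119 exonic bases with U2af1l4 and 111 with Gm49396, both on the opposite strand.

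Numb (ENSMUSG00000021224, chromosome 12, 83794034 to 83921934, minus strand) was among the most variable members. It had 43, 63 and 43 counts in WT and 48, 23 and 79 in cD2KO. In CPM it was 11, 23.2 and 14.9 in WT, and 21.8, 7.87 and 24.8 in cD2KO. Both the lowest and the highest mouse were cD2KO, fl126 and fl128. The difference was 0.15 on the log2 scale with a wide interval (SE 0.43, 95% interval -0.78 to 1.08, edgeR adjusted p = 0.934).

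Numbl (ENSMUSG00000063160, chromosome 7, 27258433 to 27282144, plus strand), which encodes Numb-like, had 24.1, 22.8 and 29.4 CPM in WT and 12.2, 31.1 and 28.9 CPM in cD2KO. The cD2KO mouse fl125 stood below the other 5, which lay within 22.8 to 31.1 CPM. The log2 fold change was -0.07 (SE 0.34, 95% interval -0.80 to 0.67, edgeR adjusted p = 0.964).

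**Figure D2:**
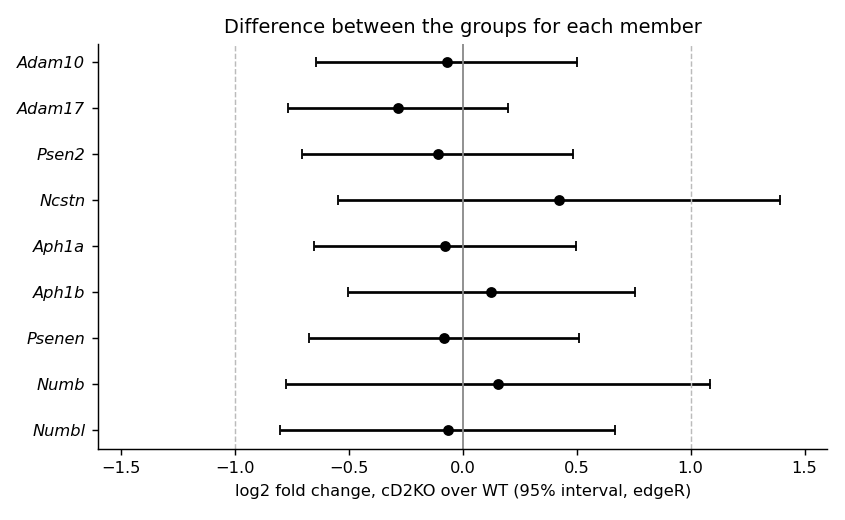
Fitted log2 fold change of cD2KO over WT for each gene (points) with its 95% interval from edgeR (bars), and dashed lines at a 2-fold difference. Every interval crosses 0, and those of Ncstn and Numb also pass the upper dashed line.

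The sign of these small differences turned on single mice. Leaving out 1 mouse moved the fitted value of every member except Adam17 across 0 at least once, while 9 other settings with all 6 mice turned none.

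**Figure D3:**
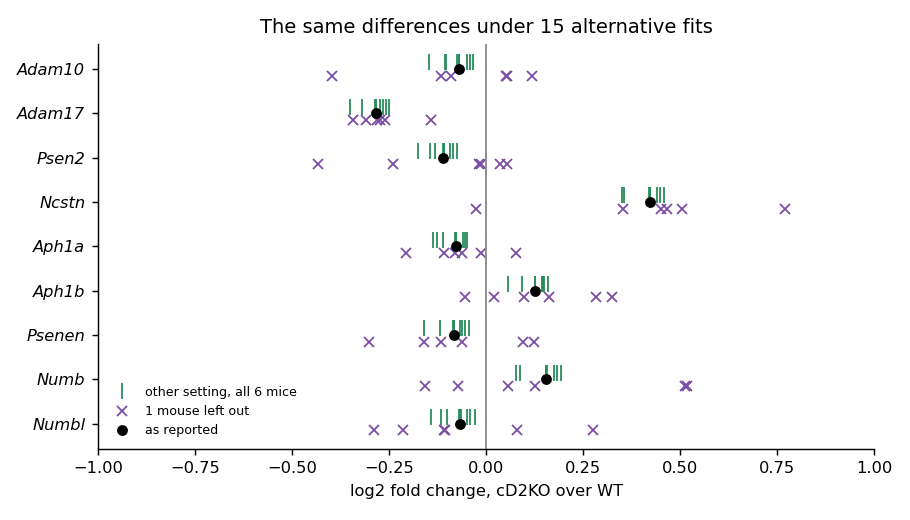
Log2 fold change of cD2KO over WT for each gene as reported (black points), with 9 other settings that keep all mice (green ticks) and with each mouse left out in turn (purple crosses). The ticks stay near each point, whereas the crosses of all genes except Adam17 reach the other side of 0.

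The spread among mice is given as a description. The coefficient of variation of CPM over the 6 mice was 14.6% for Adam17 and 15% for Aph1a, where counting error alone gave 8.75% and 10.5%. It was 41.2% for Ncstn and 40.6% for Numb, where counting error alone gave 19.1% and 14.9%. Whether the genes differed in spread was not tested. The highest mouse exceeded the lowest 1.46 times for Adam17, 3.14 times for Ncstn and 3.15 times for Numb. The highest value of most members came from a cD2KO mouse. That of Psen2, Ncstn, Aph1b and Numbl was in fl126, and that of Adam10, Psenen and Numb in fl128. For Psenen the WT mouse c129 was almost equal (42.7 against 42.8 CPM). For Aph1b and Numbl the WT mouse c130 was close, at 29.4 CPM each against 32.2 and 31.1.

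Per kilobase of annotated exon (GENCODE M21), Psenen had the highest level, 27.0 ± 5.48 CPM per kb (SD, n = 6 mice), and its lowest mouse (19.5) was above every mouse of the next gene. Psen2, Adam10 and Aph1a followed at 9.76 ± 2.34, 9.69 ± 2.24 and 9.13 ± 1.37 CPM per kb, with ranges that overlapped. Adam17 came next at 6.35 ± 0.925, below Aph1a in 6 of 6 mice. Aph1b (4.85 ± 0.923) and Numb (4.41 ± 1.79) overlapped, and so did Numbl (2.86 ± 0.800) and Ncstn (2.65 ± 1.09), which were lowest per kb. The sources do not say whether reads covered whole transcripts. The order per kb holds only if they did, which matters most for Psenen, the shortest of the 9 at 1275 exonic bases. It also depends on the length used, the union of exons over all annotated transcripts of a gene, which can exceed the expressed transcript. By CPM without this division the order differed. Adam10 had the highest mean (47.6 CPM) and Psenen had 34.5, and Numbl (24.8) was above Numb (17.3) in 4 of 6 mice.

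Ratios within a library do not depend on scaling and were compared for 3 pairs of related genes. The log2 ratio of Adam10 to Adam17 was 0.00, -0.07 and -0.02 in WT, almost the same in every mouse, and -0.08, -0.27 and 0.70 in cD2KO. The means differed by 0.15 (two-sided exact permutation test, p = 1). The log2 ratio of Aph1a to Aph1b was 0.44 ± 0.33 in WT and 0.23 ± 0.50 in cD2KO (SD, n = 3 each; exact permutation p = 0.6). That of Numb to Numbl was -1.11, 0.02 and -0.97 in WT and 0.81, -1.94 and -0.22 in cD2KO, so that fl126 had the least Numb for its Numbl and fl125 the most. Its mean difference was 0.24 (exact permutation p = 1). After adjustment over the 3 ratios every p was 1, and 3 mice against 3 could not have given less than 0.1.

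The members did not vary as a block across the mice. Over the 36 pairs, the median Pearson r of log2 CPM over the 6 mice was 0.08, and 20 pairs were above 0. The highest values were 0.81 for both Ncstn with Numbl and Ncstn with Aph1b, which share their high in fl126, and 0.77 for Adam10 with Numb, which share theirs in fl128. The lowest was -0.86 for Aph1a with Psenen, both γ-secretase genes. Numb and Numbl gave -0.43, and Adam10 and Adam17 gave 0.26. These r describe 6 libraries that also share depth and composition.

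For 1 gene of each role, the tested genes with the most similar pattern over the 6 mice were listed as a description. They were Anapc4 (r = 0.984), Tnnt2 (0.981) and 4921524J17Rik (0.980) for Adam10. For Psen2 they were Prdm15 (0.980), Tcf19 (0.978) and Pld2 (0.975), and for Numb they were Tnfrsf19 (0.985), Mroh1 (0.984) and Plekhm1 (0.983). Between 35 and 49 tested genes had an r above 0.9 with each of these 3 members (0.301% to 0.421% of all), and no other member was among the genes named.

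Genes that work around the cleavage step were then described by list, with the same fit and the same threshold. No gene of any list passed an adjusted p of 0.05. Over all tested genes, 6.62% were called lower and 5.34% higher, and the groups did not overlap for 18.1%. Of 18 partners of the sheddases, 17 were tested, 2 were called lower and 0 higher, with a median log2 fold change of -0.03. Tspan5, a tetraspanin that escorts ADAM10 out of the endoplasmic reticulum, was called lower. It had 13.1, 25.4 and 13.5 CPM in WT and 4.08, 6.84 and 8.80 CPM in cD2KO, a log2 fold change of -1.37 (SE 0.44, edgeR adjusted p = 0.202). Rhbdf2, the gene of iRhom2, which carries ADAM17 to the surface, was also called lower. Its level was 11.8, 19.5 and 11.4 CPM in WT and 5.89, 8.56 and 5.97 CPM in cD2KO (log2 fold change -1.05, SE 0.42, edgeR adjusted p = 0.354). Neither gene's groups overlapped. The summed immune markers were lower in cD2KO as well (4224 to 7889 CPM in WT and 233 to 2515 in cD2KO), and their part in the values of Tspan5 and Rhbdf2 was not tested. The count of partners called lower was 0 without c129 and 1 without fl128. Rhbdf1, the gene of the related iRhom1, had a log2 fold change of 0.08 and Timp3, an inhibitor of both sheddases, one of -0.03.

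Other members of the ADAM family are mostly not Notch sheddases. Of 9 listed, 7 were tested, 4 were called lower and 0 higher, and the median log2 fold change was -0.81. Adam28 had no count in any mouse and Adam9 had 3 to 16. Adam15 had 107, 154 and 158 CPM in WT and 54.4, 96.2 and 119 CPM in cD2KO (log2 fold change -0.64, SE 0.27, edgeR adjusted p = 0.377). Adam8, a leukocyte ADAM, had 11, 28 and 12 counts in WT and 1, 6 and 5 in cD2KO (log2 fold change -1.99, SE 0.79, edgeR adjusted p = 0.348). Adam12, known from myoblast fusion, had 10.8, 15.1 and 6.23 CPM in WT and 4.53, 5.48 and 4.72 CPM in cD2KO (log2 fold change -1.12, SE 0.50). Adam33 had 22.8, 22.8 and 18.7 CPM in WT and 12.2, 12.7 and 15.4 CPM in cD2KO (log2 fold change -0.67, SE 0.31). The groups overlapped for Adam15 and not for the other 3. The count of 4 depended on each library, since leaving out any one mouse left 1 or 2 called lower, with 1 without c129, fl125 or fl126 and 2 without c124, c130 or fl128. DESeq2 and limma voom called 2 each. Of 19 immune markers tested, 4 were called lower (median log2 fold change -1.87), and 7 of 14 endothelial markers (median -1.26). The count of immune markers called lower was 16 without fl125, 2 without c129 or c130 and 1 without fl128. Their part in the ADAM values was not tested.

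Of 11 genes that assemble with γ-secretase or resemble it, 0 were called in either direction by edgeR at an unadjusted p of 0.05, by DESeq2 or by limma voom, with a median log2 fold change of -0.08. This list includes the trafficking factor Rer1, the signal peptide peptidases and Aph1c. Of 21 partners of Numb, 18 were tested and only Ap2a2 was called, lower in cD2KO. It encodes an α subunit of the AP-2 clathrin adaptor, to which Numb binds. Ap2a2 had 89.9, 106 and 116 CPM in WT and 55.3, 55.4 and 47.8 CPM in cD2KO, with no overlap between the groups (log2 fold change -0.98, SE 0.20, edgeR adjusted p = 0.0885). The other AP-2 subunit genes were not called and went both ways. Their log2 fold changes were 0.27 for Ap2a1, 0.39 for Ap2b1, -0.34 for Ap2m1 and -0.02 for Ap2s1. All cD2KO mice lay above all WT mice for Ap2b1 and below them for Ap2m1. With any one mouse left out, 1 partner of Numb was called lower, and 1 was called higher without fl125 or without fl126.

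**Figure D4:**
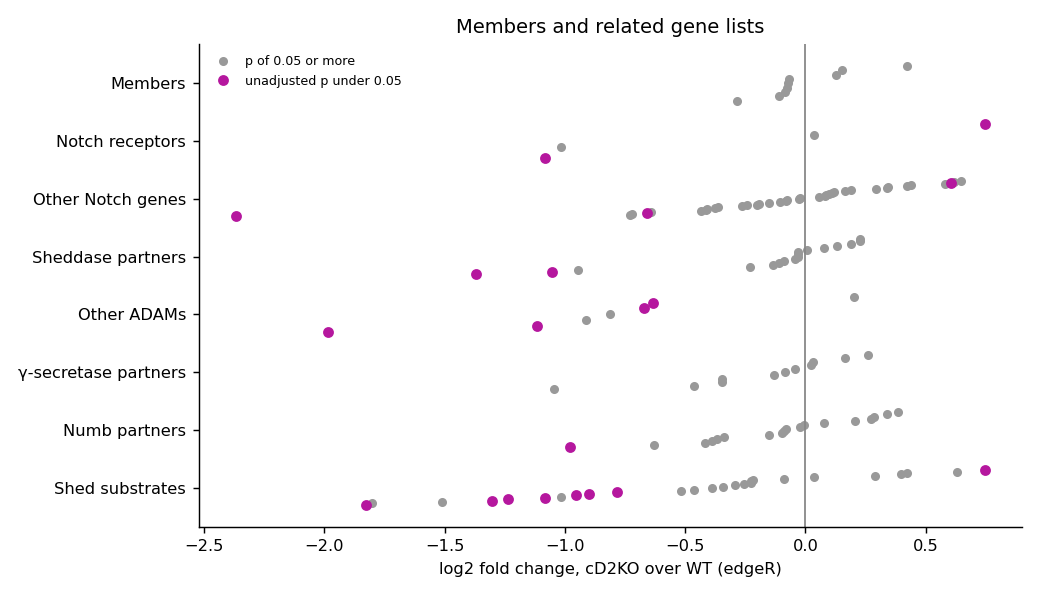
Fitted log2 fold change of cD2KO over WT for the 9 members and for each tested gene of the 7 related lists (points, ordered by value within a row), with genes at an unadjusted p under 0.05 in magenta. No member is magenta, and members span -0.28 to 0.42 whereas 4 of the 7 other ADAMs are magenta and lie below 0.

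Of the 4 receptors that these enzymes cut, 1 was called lower and 1 higher. Notch2, called lower, had 61.2, 41.6 and 59.9 CPM in WT and 25.8, 26.0 and 25.1 CPM in cD2KO, a log2 fold change of -1.08 (SE 0.25, edgeR adjusted p = 0.0997). Notch3, which mural cells express strongly, was called higher, with 722, 459 and 729 CPM in WT and 802, 1055 and 1352 CPM in cD2KO (log2 fold change 0.75, SE 0.25, edgeR adjusted p = 0.216). The mural sum was higher in cD2KO too, with a median log2 fold change of 0.73 over the 13 markers. Called higher were Cnn1, Tagln, Mylk, Myh11, Lmod1, Mcam and Acta2 (7 of 13). Rgs5, Pdgfrb, Cspg4, Kcnj8, Abcc9 and Higd1b were not called, and 10 of the 13 were above 0. The sum over the 12 MuSC markers was also higher in cD2KO, with a median log2 fold change of 0.33. Of these 12, 4 were called higher and 0 lower, and 8 were above 0. The parts of the mural and MuSC markers in the Notch3 value were not tested. Notch1 (log2 fold change 0.03) and Notch4 (-1.01) were not called, and 2 receptors were called lower without c124.

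Of 32 substrates of ADAM10 or ADAM17, a list that includes the 4 receptors, 26 were tested, 7 were called lower and 1, Notch3, was called higher, at a median log2 fold change of -0.37. Besides Notch2 those lower were the hyaluronan receptor Cd44 (-0.90), the TNF receptor gene Tnfrsf1b (-1.83), the syndecan gene Sdc3 (-0.78), the interleukin 6 receptor gene Il6ra (-0.96), the VE-cadherin gene Cdh5 (-1.24) and the adhesion gene Icam1 (-1.30). Cdh5 is also in the endothelial list, and Csf1r (-1.51, not called) is also in the immune list. On the same scale the immune list was at a median of -1.87 and the endothelial list at -1.26, and their part in the substrate values was not tested. Without c129 the number called lower was 4, and without fl125 2 were called higher. Of 37 other Notch pathway genes tested, 2 were called lower and 1 higher at a median of -0.03. The number called lower was 1 without c130 or fl126, and the number called higher was 3 without c124 or fl125, 2 without fl128 and 0 without c130. It was also 0 by DESeq2 and with library totals alone, and 2 by limma voom. The nuclear partner Rbpj had 67.6, 64.8 and 61.6 CPM in WT and 33.5, 44.5 and 44.6 CPM in cD2KO (log2 fold change -0.66, SE 0.22, edgeR adjusted p = 0.220). The glycosyltransferase gene Mfng, at 0 to 25 counts, was also called lower (-2.37), and the ubiquitin ligase gene Neurl1a was called higher (0.61).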

How the data were processed

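The deposited table held raw read counts per Ensembl gene for the 6 libraries. The submitters' processing notes name STAR 2.6.0a, HTSeq 0.9.1 and mm10 without giving roles, and the annotation, the library kit and the use of strand were not given in the sources used here. Identifiers were matched to GENCODE M21 (30934 of 31053). Counts were fitted with edgeR 4.0.16 (robust quasi-likelihood, TMM) in R 4.3.3 over the 11633 genes whose average count, normalized by DESeq2, exceeded 10. A gene was called at an unadjusted p under 0.05, with the Benjamini-Hochberg value over all tested genes beside it. Intervals are 95% from the fit. CPM used TMM-scaled sizes, and log2 CPM for r had a prior count of 2. Ratios used a pseudocount of 1 and exact permutation over mice. DESeq2 1.42.0, limma 3.58.1, other scalings, filters and each mouse left out were the alternatives. Scripts were tested on simulated data. The 9 genes and all lists were chosen with earlier results of these data known. All members were named, and of each other list outside the cell markers up to 4 genes by p in each direction past 0.05. Rhbdf1, Timp3, Notch1, Notch4, Il6ra, Cdh5, Icam1, Csf1r, Adam9, Adam28, Aph1c, Ap2a1, Ap2b1, Ap2m1 and Ap2s1 were named after their values were seen. Intervals cover the spread among these mice only, and no sequencing batch was given.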

Additional observations from a re-analysis of the deposited data

How the results depend on the processing

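In 15 alternative fits, 9 with all mice and 6 with 1 mouse left out, the members gave 133 values, of which 0 passed an unadjusted p of 0.05 and 119 kept their direction. The 14 that turned sign all came from leaving out a mouse, and only Adam17 (-0.35 to -0.14) had none. With 1 mouse left out, the log2 fold change ranged from -0.40 to 0.12 for Adam10, -0.43 to 0.055 for Psen2, -0.026 to 0.77 for Ncstn, -0.21 to 0.078 for Aph1a, -0.054 to 0.32 for Aph1b, -0.30 to 0.12 for Psenen, -0.16 to 0.52 for Numb and -0.29 to 0.27 for Numbl. The ratio difference ranged from -0.14 to 0.34 for Adam10 to Adam17, from -0.49 (without fl125) to -0.040 (without c124) for Aph1a to Aph1b and from -0.39 to 0.98 for Numb to Numbl. Over all genes, the count called lower was 505 with a minimum mean of 50 (fewer genes tested, Ncstn and Numb among those not tested) and 408 to 866 without a mouse, lowest without c129. The count called higher was 939 with no minimum and 406 to 934 without a mouse, lowest without fl128 and highest without fl125. With library totals alone the split was 953 lower and 439 higher, against 770 and 621. The cause was not tested. Sex as a covariate could not be fitted, since all 6 mice had the pattern of males. Each library held 370 to 614 Y-linked counts and at most 1 Xist count. No paired analysis was possible because the mouse numbers are not shared between groups.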
